A study of Caenorhabditis elegans with 2 samples.

Results

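The genes described here are 58 spliceosome and RNA processing factor genes of Caenorhabditis elegans, taken from 19973 nuclear protein-coding genes of the Ensembl annotation of genome build WBcel235 (ce11). They are all genes whose names start with rsp-, snr-, snrp-, prp-, hrp, uaf-, smu- or rnp-, plus sfa-1 and sut-2. The prp names cover 13 genes, rsp 8, snr 7, snrp 5, uaf 2, hrp 10, rnp 9, smu 2, and sfa-1 with sut-2 make up the remaining 2. The study mapped the transcription factor MEF-2 on chromatin by chromatin immunoprecipitation and sequencing (ChIP-seq) in L1 larvae (first larval stage), taken whole and of mixed sex. Both samples came from strain OP301, genotype unc-119(tm4063) III; wgIs301, in which the wgIs301 insertion supplies MEF-2 fused to eGFP. They are 2 biological replicates of 1 group, so no treatment, stage or strain was compared, and every animal carried the unc-119 allele and the transgene. The labels enter mef-2 as the antibody, and no source used here gives the promoter or copy number of the transgene.

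MEF-2 belongs to the MADS-box family of DNA-binding proteins, whose relatives bind an A/T-rich sequence, the MEF2 element, and are best known from muscle and neurons. The spliceosome removes introns from pre-mRNA with small nuclear ribonucleoproteins (snRNPs), most of them built on a ring of Sm proteins. Many PRP proteins join and rearrange the snRNPs. SR proteins and hnRNPs bind the pre-mRNA itself and steer the choice of splice sites, and these genes are used in nearly every cell of the animal.

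The data were lists of peaks without counts of reads, so sequencing depth is unknown. The control was not analysed here. The list thresholded for reproducibility held 832 peaks, which were exactly the 832 strongest of the 28182 intervals in the pooled list. The relaxed lists of replicate 1 and replicate 2, which include background, held 30000 and 16385 intervals. The authors' peak caller gave every interval a signal value. It ran from 27.4 to 428 in the thresholded list with a median of 37.2, and the medians were 7.98 in the pooled list, 6.80 in replicate 1 and 3.00 in replicate 2. The scale is not stated and is each list's own, so replicates are set side by side by rank, with 1 the strongest. A gene was given a site when the point source of an interval lay between 1000 bp upstream and 200 bp downstream of its outermost annotated 5' end, and negative positions are upstream. In whole larvae, binding in few cells and weak binding in many cells cannot be told apart.

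Thresholded MEF-2 sites lay at 12 of the 58 genes (20.7%, 95% Wilson interval 12.3% to 32.8%), against 585 of all 19973 genes (2.93%). They were at the PRP genes prp-19, prp-8 and prp-40, the SR protein genes rsp-1, rsp-2, rsp-5 and rsp-6, the Sm protein genes snr-1, snr-3 and snr-4, and the hnRNP genes hrpa-1 and hrpu-2. By family, 4 of 8 rsp genes carried one (50%, interval 21.5% to 78.5%), 3 of 7 snr genes (42.9%, 15.8% to 75%), 3 of 13 prp genes (23.1%, 8.18% to 50.3%) and 2 of 10 hrp genes (20.0%, 5.67% to 51.0%). None of the 5 snrp, 9 rnp, 2 uaf or 2 smu genes did, nor sfa-1 or sut-2. Counts of 0 in families this small allow shares of up to 43.4% for snrp, 29.9% for rnp and 65.8% for each of the others. The intervals of the families overlap throughout, so no family is shown to differ from another. Genes are not replicates of a condition: the intervals cover counting error only, and the genes were chosen with results of these data known, so no test over them was made.

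**Figure D1:**
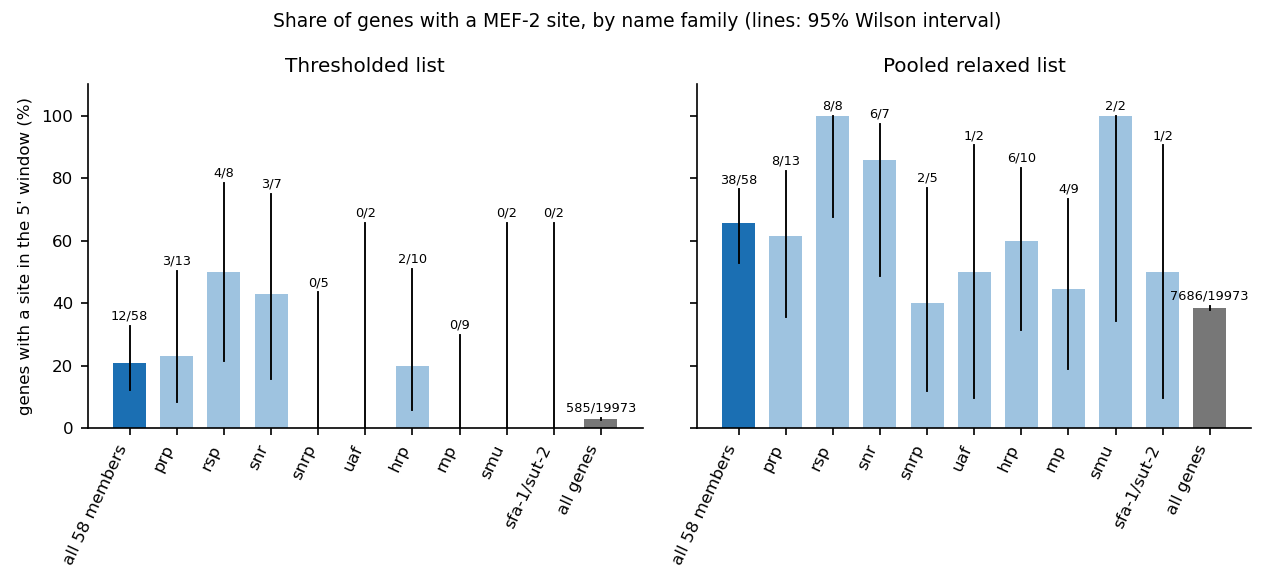
Share of genes (%, y axis) with a MEF-2 point source in the 5' window for all 58 genes, each name family and all nuclear protein-coding genes, in the thresholded list (left) and the pooled relaxed list (right); bars are shares, lines are 95% Wilson intervals and labels are counts. The rsp bar is the highest among families of over 2 genes in both panels, at 4 of 8 and 8 of 8, with wide intervals.

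The 12 genes shared 10 distinct sites, because rsp-1 and rsp-2 lie head to head on either side of 1 site and rsp-5 and snr-3 on either side of another. The sequences of 5 of these sites are shown because the description below turns on them: both sites shared by gene pairs, the site with a MEF2 element (rsp-6), and the sites of prp-8 and hrpu-2. Each is 201 bp centred on the pooled point source, on the forward strand of ce11, read from the RefSeq copy of WBcel235. Capitals mark ACGCGC, read on either strand, and in rsp-6 also the MEF2 element. No annotated exon overlaps these windows. They lie at chrII:11453065-11453265 (rsp-1/rsp-2), chrII:6489889-6490089 (rsp-5/snr-3), chrIV:7791322-7791522 (rsp-6), chrIII:8163943-8164143 (prp-8) and chrIV:2177664-2177864 (hrpu-2).
rsp-1/rsp-2: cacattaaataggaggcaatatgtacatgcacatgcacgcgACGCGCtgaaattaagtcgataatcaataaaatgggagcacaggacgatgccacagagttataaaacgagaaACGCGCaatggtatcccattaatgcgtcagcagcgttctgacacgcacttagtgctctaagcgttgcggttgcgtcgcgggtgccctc
rsp-5/snr-3: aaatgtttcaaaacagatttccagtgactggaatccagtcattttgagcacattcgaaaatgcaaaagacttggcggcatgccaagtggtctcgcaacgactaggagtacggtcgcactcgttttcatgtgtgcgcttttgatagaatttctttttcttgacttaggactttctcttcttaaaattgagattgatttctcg
rsp-6: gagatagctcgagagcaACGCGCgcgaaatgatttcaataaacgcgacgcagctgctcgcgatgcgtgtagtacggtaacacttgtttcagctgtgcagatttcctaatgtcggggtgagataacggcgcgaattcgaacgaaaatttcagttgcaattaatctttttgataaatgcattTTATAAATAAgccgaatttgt
prp-8: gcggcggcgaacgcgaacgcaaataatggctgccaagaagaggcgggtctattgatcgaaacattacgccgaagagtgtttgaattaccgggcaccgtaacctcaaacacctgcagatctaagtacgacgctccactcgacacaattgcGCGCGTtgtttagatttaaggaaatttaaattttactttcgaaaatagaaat
hrpu-2: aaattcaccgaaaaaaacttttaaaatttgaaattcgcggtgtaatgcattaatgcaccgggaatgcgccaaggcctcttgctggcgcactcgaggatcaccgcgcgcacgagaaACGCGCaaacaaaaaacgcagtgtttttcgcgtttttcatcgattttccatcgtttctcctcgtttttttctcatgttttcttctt

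The SR proteins are RNA-binding factors with a domain rich in arginine and serine that define exons. Their strongest site was at rsp-6, a 340 bp peak at chrIV:7791252-7791591 with a pooled signal of 38.0 (rank 386) and its point source 193 bp upstream of the 5' end. It ranked 567 in replicate 1 (signal 23.5) and 417 in replicate 2 (signal 12), so both replicates placed it among their 832 strongest. It was at no other protein-coding 5' end. The site between rsp-1 and rsp-2, at chrII:11452995-11453334, had a pooled signal of 28.9 (rank 731). Its point source was 197 bp upstream of rsp-1 and 210 bp upstream of rsp-2, near the middle of the 407 bp between them. The replicates ranked it far apart, at 1861 in replicate 1 (signal 14.6) and 328 in replicate 2 (signal 13.3). The site between rsp-5 and snr-3, at chrII:6489819-6490158, was close to the threshold with a pooled signal of 28.0 (rank 783). It was 176 bp upstream of rsp-5 and 228 bp upstream of snr-3, and ranked 1029 in replicate 1 (signal 18.6) and 959 in replicate 2 (signal 8.24). It was therefore outside the 832 strongest of either replicate alone.

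The other 4 rsp genes had pooled intervals below the threshold. The SRSF1 relative rsp-3 was the nearest to it, with a signal of 25.4 at rank 958 and position -266, and ranks of 1057 in replicate 1 and 1694 in replicate 2. Weak intervals stood at rsp-8 (rank 11210), rsp-7 (rank 13314) and the SC35 relative rsp-4 (rank 22509). With these, all 8 rsp genes had an interval in the pooled list, 7 had one in replicate 1 and 7 in replicate 2.

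The Sm proteins form the ring around the RNA of most spliceosomal snRNPs. The site at snr-4, which encodes SmD2, was at chrV:11979904-11980243 with a pooled signal of 33.2 (rank 533), 351 bp upstream of the 5' end. It ranked 1115 in replicate 1 (signal 17.9) and 128 in replicate 2 (signal 18.6). This site was also 44 bp upstream of T11F9.15, annotated as a small nuclear RNA gene, and 115 bp downstream of the start of the non-coding RNA gene C52E4.14, so its closest annotated start was not that of snr-4. Of the 201 bases around it, 185 were annotated exon. The site at snr-1, which encodes SmD3, was at chrIV:17087495-17087834 with a pooled signal of 30.8 (rank 624), and both replicates ranked it among their 832 strongest (719 with signal 21.5, and 533 with signal 10.8). It lay 384 bp upstream of snr-1 and 227 bp upstream of the divergent gene snx-13. The SmD1 gene snr-3 shared the site of rsp-5 described above, at position -228.

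Among the remaining Sm genes, snr-6 (SmE) had a pooled signal of 24.0 at rank 1078 and position -250, and snr-5 (SmF) had 13.6 at rank 3563. The SmG gene snr-7 had a weak pooled interval at rank 14366, and snr-2, which encodes SmB, had none in any of the 4 lists. The 3 snr genes with a thresholded site are those of the SmD proteins, a description of 7 genes that was not tested.

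PRP proteins carried the strongest sites of all 58 genes. The site assigned to prp-19, which encodes a ubiquitin ligase of the catalytic spliceosome, had a pooled signal of 52.2 (rank 158) at chrIII:5172509-5172848, and ranked 264 in replicate 1 (signal 32.0) and 136 in replicate 2 (signal 18.1). Its point sources in the 2 replicates were 2 bp apart, and 60 of the 201 bases around it were annotated exon. It was 634 bp upstream of prp-19 but only 41 bp upstream of the divergent gene K10D2.5, and 760 bp upstream of emb-1, so prp-19 was not the nearest gene. The site of prp-8, which encodes the core protein of the U5 snRNP, had a pooled signal of 47.0 (rank 219) at chrIII:8163873-8164212, with rank 204 in replicate 1 (signal 34.9) and 386 in replicate 2 (signal 12.5). It was 330 bp upstream of prp-8 and 660 bp upstream of the divergent gene bath-42. The site of prp-40, a factor that associates with the U1 snRNP, had a pooled signal of 44.7 (rank 243) at chrIII:9521710-9522049 and lay 195 bp upstream of it and 420 bp upstream of clu-1. It ranked 192 in replicate 1 (signal 35.5) and 804 in replicate 2 (signal 8.92). All 3 were among the 832 strongest intervals of both replicates.

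The rest of the prp family was far weaker, with no gene between these 3 and rank 11197 of the pooled list. Pooled signals were 8.74 at the second-step factor prp-18, 8.23 at the U4/U6 protein prp-31, 7.93 at the SF3A subunit prp-9, 6.90 at the U4/U6 protein prp-4 and 6.55 at prp-6 of the tri-snRNP, which puts the last 3 below the pooled median of 7.98. The U1 factor prp-39 had only a replicate 1 interval (rank 27199), and the SF3A subunit prp-21 only one in replicate 2 (rank 5054). The second-step factor gene prp-17, the U4/U6 protein gene prp-3, and prp-38 had no interval in any list.

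The hnRNPs coat nascent pre-mRNA and bind elements that silence or enhance exons. At hrpu-2, of the hnRNP U type, the site at chrIV:2177594-2177933 had a pooled signal of 34.9 (rank 483) and lay 132 bp upstream. It ranked 1148 in replicate 1 (signal 17.7) and 322 in replicate 2 (signal 13.4). At hrpa-1, the hnRNP A1 gene, the site at chrIV:3338716-3339055 had a pooled signal of 30.6 (rank 638) with ranks of 718 in replicate 1 (signal 21.5) and 988 in replicate 2 (signal 8.13). It was 19 bp upstream of the 5' end, the closest of the 12, and 62 of the 201 bases around it were annotated exon. Neither hnRNP site was among the 832 strongest in both replicates.

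Below the threshold stood hrpf-1, of the hnRNP F/H type, with a pooled signal of 25.9 at rank 917 but 884 bp upstream. It was followed by hrpr-1 (hnRNP R/Q type, 20.3 at rank 1512), hrpl-1 (hnRNP L type, 15.9 at rank 2542) and hrpu-1 (12.1 at rank 4782). Inside the window, the replicates differed at another pair of hnRNP genes. At hrpf-2 replicate 2 had an interval at rank 726 and position -229, while neither replicate 1 nor the pooled list had any. At hrpk-1, an hnRNP K gene, replicate 1 had one at rank 668 and position 154, and replicate 2 one at rank 9255 and position -664, so they were not at the same place. A thresholded peak with a signal of 37.0 (rank 421) lay in an intron of hrpk-1 at chrI:6317728-6318067. Its point source was 201 bp downstream of the outermost 5' end, 1 bp outside the window, and 132 bp upstream of the 5' end of another annotated hrpk-1 transcript, so its absence from the 12 rests on the edge of the window. The intervals inside the window do not show how replicate 2 ranked this peak. At hrpk-2 only replicate 2 had an interval (rank 12959), and hrpa-2 had none in any list.

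The snrp, rnp, uaf and smu genes and the remaining pair had no thresholded site, and several came close to it. The next gene below the threshold was snrp-40.1, which encodes a protein like the U5 40K subunit, with a pooled signal of 26.0 at rank 912 and its point source exactly at the 5' end. It was among the 832 strongest of replicate 2 (rank 399) but not of replicate 1 (rank 3264). The U1-C gene snrp-3 had a signal of 23.3 at rank 1154, with ranks of 1235 in replicate 1 and 1334 in replicate 2. The other 3 snrp genes, the helicase gene snrp-200, snrp-27 and snrp-40.2, had no interval in any list.

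Among the rnp genes, rnp-6, the PUF60 relative, had a pooled signal of 25.7 at rank 931 and position -159, with similar ranks of 1467 in replicate 1 and 1509 in replicate 2. The U1 snRNP protein gene rnp-2 followed with 15.2 at rank 2817, then rnp-9 with 10.6 at rank 6746 and rnp-3, a relative of the U2 protein B'', with 8.21 at rank 13150. The RNPS1 gene rnp-5 had only a replicate 2 interval (rank 12118). No list held an interval at rnp-1, rnp-4 (Y14 of the exon junction complex), rnp-7 (U1-70K) or rnp-8, a partner of the poly(A) polymerase GLD-2.

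Both smu genes, which affect splicing of unc-52 transcripts, had their pooled point sources close to the 5' end. They were at position -1 for smu-1 (23.3, rank 1155) and 35 bp downstream for smu-2 (11.8, rank 5121). The ranks of smu-1 were 1551 in replicate 1 and 764 in replicate 2. The U2AF genes differed from each other: the small subunit gene uaf-2 had a pooled interval of signal 9.17 at rank 9880, and the large subunit gene uaf-1 had none in any list. The poly(A)-binding protein gene sut-2 had a pooled signal of 10.2 at rank 7366, and sfa-1, which encodes the branch point factor SF1, had only a replicate 1 interval at rank 28668.

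**Figure D2:**
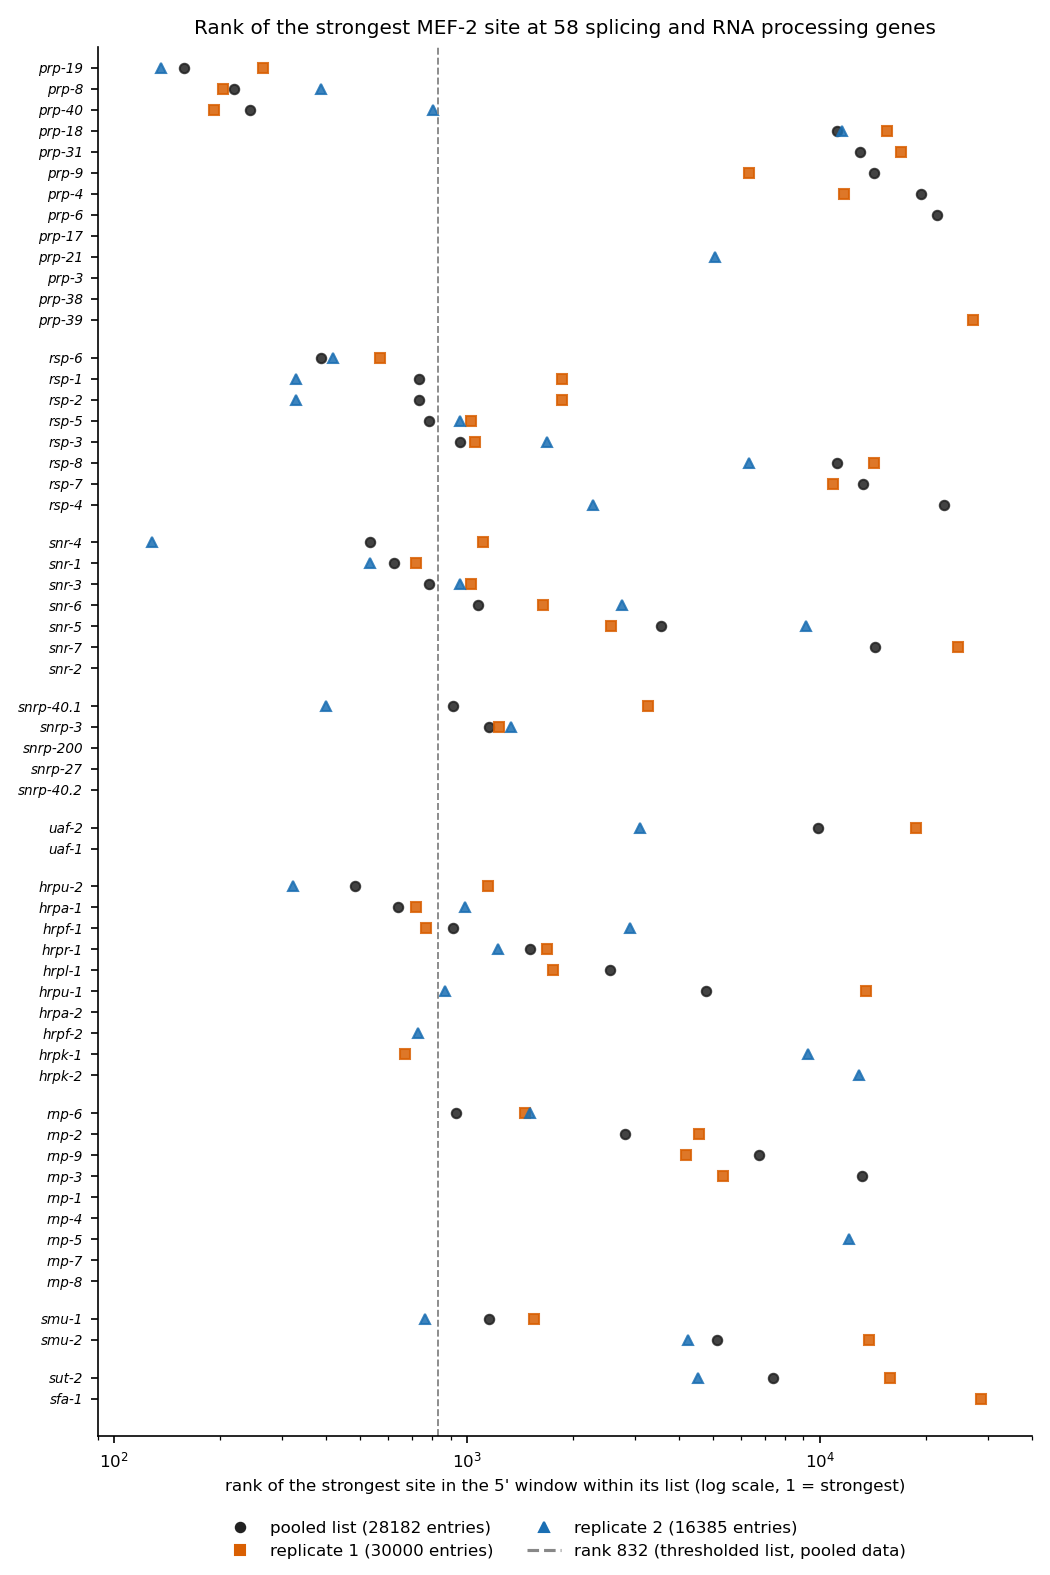
Rank of the strongest interval in the 5' window of each of the 58 genes (rows, by family) in the pooled list (circles), replicate 1 (squares) and replicate 2 (triangles), on a log axis with 1 the strongest; the dashed line is rank 832, the limit of the thresholded list, and a row without symbols has no interval. The prp rows fall into 3 genes left of the line and a gap to rank 11197 of the pooled list, and the rsp rows into 5 genes up to rank 958 and 3 from rank 11210 on.

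With the threshold relaxed, intervals were found at most of the set and at a large share of all genes. The pooled list had an interval at 38 of the 58 genes (65.5%, interval 52.7% to 76.4%), against 38.5% of all genes. Replicate 1 had one at 39 (67.2%) against 39.6% of all genes, and replicate 2 at 33 (56.9%) against 25.3%. An interval in both replicates was present at 28 of the 58 genes (48.3%) and at 16.1% of all genes. In the pooled list the rsp (8 of 8) and snr (6 of 7) families were again the fullest of those with over 2 genes, hrp (6 of 10) and prp (8 of 13) were intermediate, and rnp (4 of 9) and snrp (2 of 5) were near the background. The band of equal size just below the threshold, pooled ranks 833 to 1664, held the strongest site of 8 of the 58 genes (13.8%) and of 2.39% of all genes. These were snrp-40.1, hrpf-1, rnp-6, rsp-3, snr-6, snrp-3, smu-1 and hrpr-1, which come from 6 families. A further 18 genes (31.0%) had only a weaker pooled interval, close to the 33.2% of all genes. Another 7 had an interval only in a replicate list. For comparison, some list held an interval at 45 of the 58 genes and at 10318 of all 19973. The pooled list held one at 38 and at 7686 of them. No list held an interval at 13 of the 58 (22.4%), against 48.3% of all genes.

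Single replicates gave fewer or other genes. Among the 832 strongest intervals of replicate 1 were sites of 8 of the 58 genes (13.8%), against 2.68% of all genes, and among those of replicate 2 were sites of 12 (20.7%), against 3.00%. Sites among the 832 strongest of both replicates were present at 5 of the 58 genes (8.62%, interval 3.74% to 18.6%), against 1.56% of all genes. Those 5 were prp-19, prp-8, prp-40, rsp-6 and snr-1. Of the 12 genes with a thresholded site, rsp-1, rsp-2, snr-4 and hrpu-2 were that strong only in replicate 2, hrpa-1 only in replicate 1, and rsp-5 and snr-3 in neither. Among genes without a thresholded site in the window, hrpf-1 and hrpk-1 reached the 832 strongest of replicate 1 alone. In the same way snrp-40.1, smu-1 and hrpf-2 reached those of replicate 2 alone. At hrpk-1 only intervals inside the window were counted, and the thresholded peak described above lay just outside it. By site, 5 of the 10 (50%) were that strong in both replicates, close to the 226 of 434 (52.1%) among all thresholded sites at protein-coding 5' ends. The point sources of the 2 replicates were a median of 26 bp apart at the 10 sites (range 2 to 74 bp) and 27.0 bp apart over all such sites.

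**Figure D3:**
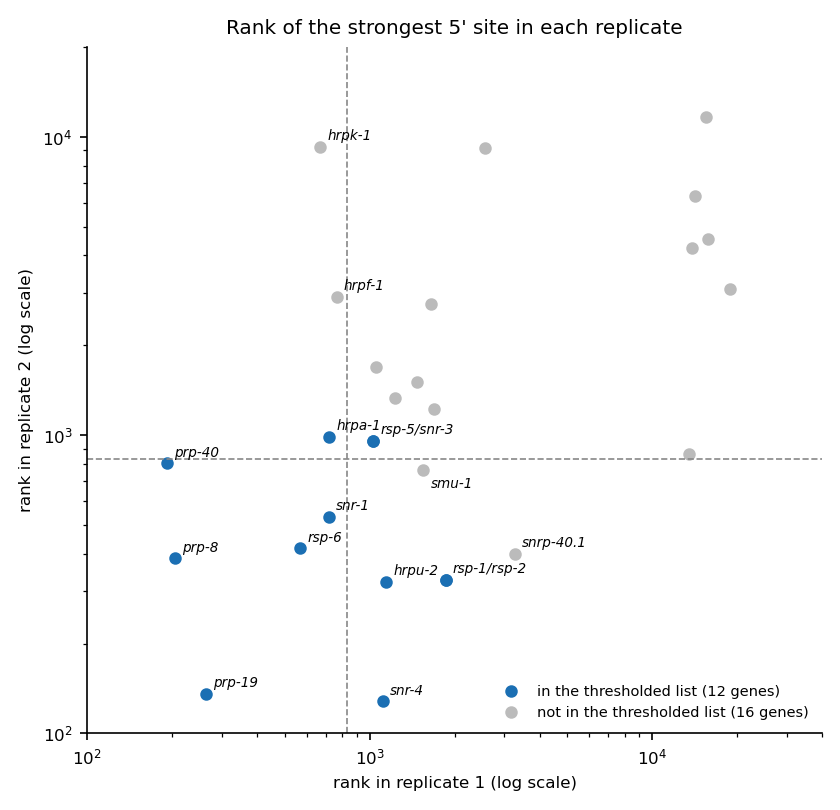
Rank of the strongest 5' interval in replicate 1 (x axis) and replicate 2 (y axis), both on log axes, for the 28 genes with an interval in both lists; blue points are genes in the thresholded list, grey points the other 16, and dashed lines mark rank 832. Only prp-19, prp-8, prp-40, rsp-6 and snr-1 lie below and left of both lines.

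Most sites of the set lay a short way upstream of the 5' end. Over the 12 genes the median position was -203.5 bp (quartiles -335.2 and -188.8, range -634 to -19), against -252.0 bp over the 585 genes with a thresholded site (quartiles -453.0 and -144.0). The stretch from 100 to 400 bp upstream, chosen after the positions were seen, held 10 of the 12 (83.3%) and 54.2% of the 585. None of the 12 genes had its site at or downstream of the 5' end, as 3.76% of the 585 genes did. Positions were tightest in the rsp family, from -210 to -176 over 4 genes that share 3 sites. The snr sites lay from -384 to -228, the prp sites from -634 to -195, and the hrp sites at -132 and -19. In the pooled list the median was -239.0 bp over 38 of the 58 genes and -295.0 bp over all genes with an interval.

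**Figure D4:**
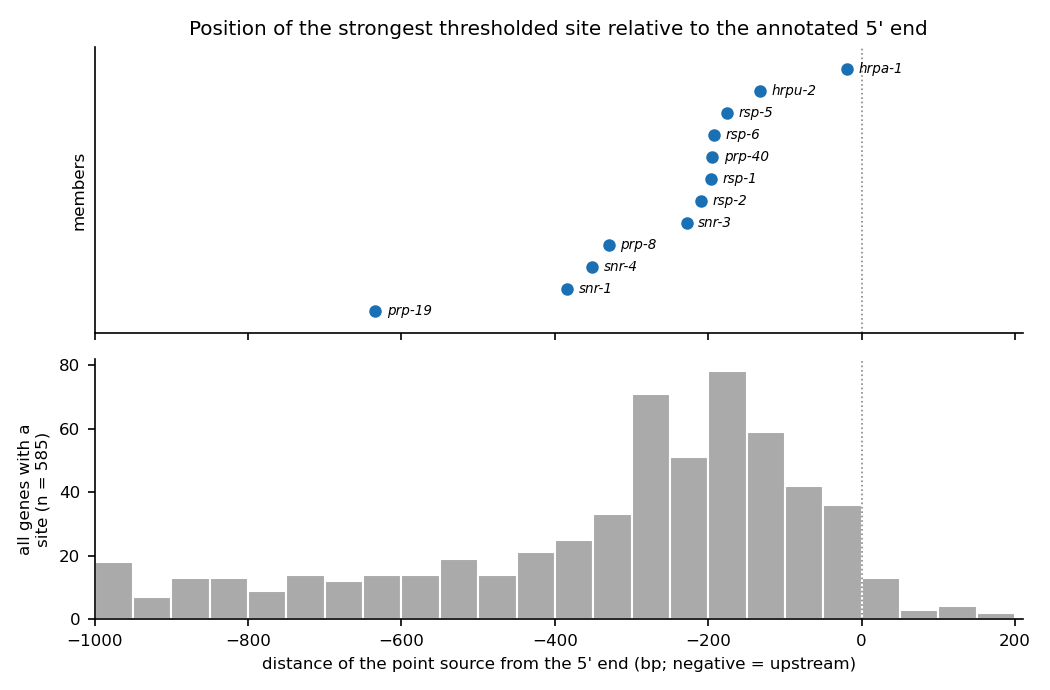
Position of the strongest thresholded point source relative to the annotated 5' end (bp, x axis, negative upstream) for the 12 splicing and RNA processing genes (top, 1 point each) and as a histogram of gene counts for all 585 genes with a thresholded site (bottom). All points except hrpa-1 at -19 and prp-19 at -634 lie between -384 and -132.

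Many of the 58 genes have a close neighbour that is transcribed away from them, and most thresholded sites lay in such shared intergenic stretches. A divergent protein-coding neighbour whose 5' end was within 1000 bp was present for 26 of the 58 genes (44.8%), against 17.2% of all genes. Of these 26, 8 had a thresholded site (30.8%), against 6.72% of all genes with such a neighbour, and 21 had a pooled interval (80.8%), against 51.6%. By site, 6 of the 10 (60.0%) were in the 5' windows of more than 1 gene, against 144 of 434 (33.2%) over all genes. A point source between a pair of genes is counted for both, and these lists do not tell which of them it serves. Among the 6, the site was nearest to a gene of the set at rsp-1/rsp-2, rsp-5/snr-3, prp-40 and prp-8, and nearest to the neighbour at snr-1 and prp-19. With each site given to its nearest protein-coding 5' end alone, 8 of the 58 genes had a site, against 2.16% of all genes.

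**Figure D5:**
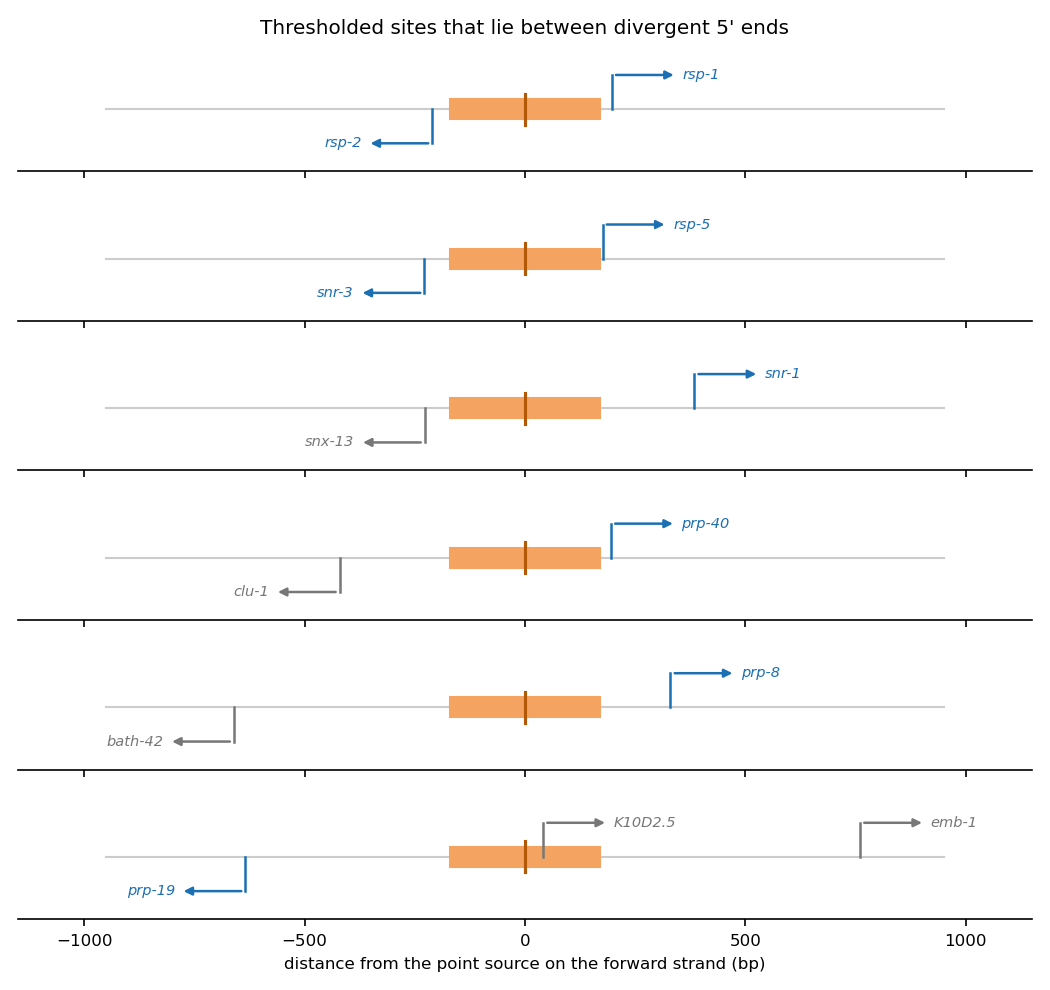
The 6 thresholded sites that lie in the 5' windows of more than 1 gene, drawn to scale in bp from the point source (dark line; orange box, the 340 bp peak) along the forward strand; arrows are annotated 5' ends with the direction of transcription, blue for the 58 genes and grey for other genes. At the upper 2 sites both genes belong to the set, and at prp-19 the 5' end of K10D2.5, 41 bp away, lies inside the peak.

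Genes close behind a same-strand neighbour had sites less often than genes with a divergent neighbour, in the set and among all genes. Of the 58, 17 (29.3%) started within 500 bp of the end of an upstream gene on the same strand, against 17.7% of all genes. Among these 17, rsp-6 and hrpu-2 had a thresholded site (11.8%), against 1.76% of all such genes. Pooled intervals were at 6 of the 17 (35.3%), close to the 33.9% of all such genes. In the snrp family 4 of 5 genes were so placed, and 3 of those 4 had no interval in any list. Having none was common in this class, at 47.1% of the 17 genes and 51.2% of all such genes. When the site was instead looked for at the first gene of each such run, 2 of 17 (11.8%) had a thresholded site, against 6.09% over all such genes, and 15 of 17 (88.2%) a pooled interval, against 51.7%. The U1-70K gene rnp-7 starts 5 bp behind syf-2, itself a splicing factor gene, whose site had a signal of 41.0 (rank 311) 407 bp upstream of syf-2. The U1 factor gene prp-39 starts 91 bp behind hmgs-1, an HMG-CoA synthase gene, whose site had a signal of 48.1 (rank 200) at position -165. The Y14 gene rnp-4 starts 1 bp behind snfc-5, which had a pooled interval of signal 19.8 (rank 1590), and prp-38 starts 107 bp behind plrg-1, with 18.8 (rank 1776). In a run that starts with uaf-2, sfa-1 comes last, behind cyn-13. Whether these runs are operons was not tested, because operon annotation was not used here.

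By chromosome, thresholded sites were at 4 of the 11 genes on chromosome II, 3 of 13 on III, 4 of 12 on IV, 1 of 6 on V and none of the 13 on I or 3 on X. The 4 genes on II are not separate sites: rsp-1 shares its site with rsp-2, and rsp-5 with snr-3. The shares of all genes were 2.49% on II, 4.58% on III, 3.44% on IV, 1.62% on V, 3.54% on I and 3.00% on X. The counts of the set are small and no difference between chromosomes was tested. Of the 8 genes in the band just below the threshold, 4 were on chromosome I (hrpf-1, rnp-6, smu-1 and hrpr-1), 2 on III, 1 on IV and 1 on X. For this band the share of all genes was not computed by chromosome.

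In sequence, the 10 sites seldom held the MEF2 element. Within 100 bp of the point source it was found, on either strand, at 1 of 10 sites (rsp-6) and at 16 of the 434 thresholded sites at 5' ends (3.69%). Windows centred 500 bp before and after the site held the element at 1 and 0 of the 10, and at 6.91% and 5.53% of the 434. Over the 434 it was thus no more common at the sites than beside them, while the counts at the 10 are too small to tell. In the band just below the threshold, 2 of the 8 sites of the set held the element, and 1 and 0 of their flanks. Of all 5' end sites in that band 7.38% held it, against 10.4% and 8.47% of their flanks. These counts are also small, and no difference was tested. At rsp-6 the element is the run TTATAAATAA at chrIV:7791502-7791511, near the right end of the sequence printed above. GAGAGA was at 1 of 10 sites (hrpa-1), against 42.9% of the 434, and CACGTG at none, against 8.53%. TATAAA was at 3 of 10, against 9.45%: rsp-6, where it overlaps the MEF2 element, snr-4 and rsp-1/rsp-2. The whole 5' windows of 1201 bp were a different comparison, of the 58 genes against all 19973 genes, with or without a site. The MEF2 element was in 46.6% against 37.5% of them and GAGAGA in 51.7% against 50.9%. CACGTG was in 15.5% against 18.4% and TATAAA in 75.9% against 80.0%. A match describes these letters only, and both strands were searched for every motif.

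All printed sequences except that of rsp-5/snr-3 hold the letters ACGCGC, a motif picked after they had been read, so its count at these sites carries no support. It was at 7 of the 10 sites, all but prp-19, prp-40 and rsp-5/snr-3, and at 93 of the 434 (21.4%). At the same 10 places it was at no window centred 500 bp to either side, and over the 434 it was at 2.07% and 3.00% of those flanks. The 8 sites of the set in the band just below the threshold, which were not used to pick it, held it once (12.5%), against 20.5% of all 5' end sites in that band. AATGCG, picked in the same way, was at 5 of the 10 sites against 21.4%, and at 3 of the 8 below the threshold (37.5%) against 18.6%. The median GC content of the 201 bp windows was 45.3% at the 10 sites and 44.3% over the 434.

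Other genes of the same pathways were described from a list made by known role. Of 126 such genes outside the set, 10 had a thresholded site (7.94%, interval 4.37% to 14.0%), against 2.93% of all genes, and 84 a pooled interval (66.7%), against 38.5%. Of the 10, 7 were also among the 832 strongest of both replicates. Among helicases, tri-snRNP and catalytic complex genes these were 3 of 32, namely syf-2 (signal 41.0, -407), rsr-1, the SRm160 relative (35.2, -484), and usp-39 (33, -179). Among 3' end formation genes they were 3 of 21: pabp-2, the nuclear poly(A)-binding protein (47.3, -384), cpsf-1, of the cleavage and polyadenylation complex (37.4, -190), and the cytoplasmic pab-1 (28.0, position 42). Splicing regulators gave 3 of 22, among them spk-1, the kinase that phosphorylates SR proteins, at 50 and position -290, and rbm-39 at 36.6 and position -13. Nonsense-mediated decay gave 1 of 9, smg-8 (30.2, -92). None was found among 8 genes of the U2 snRNP and branch site, 8 of the LSM ring, 5 of SMN and snRNP assembly, 10 of cap binding and the exon junction, and 11 of the RNA exosome, where counts of 0 allow shares from 25.9% to 43.4%.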

How the data were processed

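ChIP-seq peaks of eGFP-tagged MEF-2 were taken from 4 lists on ce11 deposited by the authors. These were a relaxed list for each of the 2 replicates, another for both pooled, and a final list limited by the irreproducible discovery rate, a measure of rank agreement. Lists on ce10 were not used. Per the deposited file records, the other 3 lists were the input of the thresholded one, and the relaxed lists were made from the replicates' alignments and 1 further file. That file was read here as a control, since control-normalized tracks list it too; the records used here do not name it so. The aligner, caller, versions and threshold were not given in the sources used here. The authors' lists give per peak a signal value (a score of unstated scale, in column 7), a −log10 q-value (column 9, not used for tests) and the offset of the point source (column 10, deposited as a distance in bp from the interval start). The signal value is the authors', and was used only to rank and describe peaks within a list. Depth is unknown.

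Point sources were assigned to genes of Ensembl release 115 with Python 3.11.15 and numpy 2.4.6, a step tested on simulated data with planted peaks. Shares have 95% Wilson intervals (scipy 1.17.1), which cover counting error only. Figures were drawn with matplotlib 3.10.9. Sequence came from the RefSeq copy of WBcel235. Motifs were searched on both strands, 4 of them from a list and ACGCGC and AATGCG after the sequences had been read. The neighbour classes and the count of distinct sites were also added after seeing the data. Of 148 names on the pathway list, 128 matched a gene, 20 did not, and 2 were already in the set, which left 126.

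The genes, lists, windows and naming rule were chosen with earlier results of these data known. Genes are named if they belong to the set, or if they are pathway list genes with a thresholded site, of which 1 is not reported here; neighbours are named where a site is shared or lies at the start of a run. Nothing was tested, since there was 1 group. Alternatives covered the window, the transcript start, interval overlap, the nearest gene, the stronger peaks alone, and each replicate alone, where the 832 strongest intervals of one replicate stand for leaving out the other.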

Additional observations from a re-analysis of the deposited data

How the results depend on the processing

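Of 101 values recomputed, 83 stayed close to the reported ones and 18 moved. The margin for counts was wide, so that a fall from 12 to 8 was labelled close. The median position was labelled close within 51.6 bp, the standard deviation of the medians of the single replicates. Many of the 83 were family counts of 0 that stayed at 0. A change of direction was possible only for the median position, where it did not occur. The 12 genes with a thresholded site became 4 among the stronger 416 peaks (prp-19, prp-8, prp-40 and rsp-6, against 1.43% of all genes), 8 with the nearest 5' end only, and 11 to 14 under the other windows, transcript starts and overlap rule; single replicates gave 8 (without replicate 2) to 12 (without replicate 1). Among the stronger 416 peaks, rsp had 1, snr 0 and hrp 0. Without one replicate the ranges were 1 to 3 for rsp, 1 to 2 for snr, 0 to 1 for snrp (snrp-40.1) and 0 to 1 for smu (smu-1). With the nearest 5' end only, snr had 1 and the pathway list 6. With the window from 2000 bp upstream to 500 bp downstream, rnp had 1 (rnp-7). Genes with sites strong in both replicates numbered 2 among the 416 strongest intervals of each and 13 among the 1664 strongest. The shares of all genes at these limits were not computed. The median position was -276.5 bp without replicate 2 and -203.5 bp without replicate 1, and -197.0 bp with the narrower window or with any transcript start. The MEF2 element was at 0 sites within 50 bp and 2 within 200 bp. Divergent neighbours fell to 16 at a spacing of 500 bp, and same-strand neighbours to 10 at a gap of 200 bp. The causes were not tested. No paired analysis was possible because there is 1 group. Unknown depth limits every statement that a gene had no interval.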
